A study of Mus musculus with 24 samples.

Results

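The genes described here are 10 feedback inhibitors of MAP kinase signalling in mouse macrophages, chosen by symbol from the 52636 genes of the deposited tables. They are the MAP kinase phosphatases Dusp1, Dusp2, Dusp4, Dusp5, Dusp6, Dusp10 and Dusp16 and the Ras pathway inhibitors Spry1, Spry2 and Spred1. The samples were RNA of bone marrow-derived macrophages, cells that mature in a dish when marrow is given the growth factor M-CSF. There were 24 libraries in 8 groups of 3, and the labels' protocols say that the 3 came from 3 individual mice. Each of 4 genotypes was taken after 8 h of R837 and untreated. R837 (imiquimod) is a synthetic ligand of Toll-like receptor 7, an endosomal sensor of RNA.

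The genotypes, as the labels spell them, were TBK1-cKD ∆IKKe, TBK1-cKD ∆control, TBK1-WT ∆IKKe and TBK1-WT ∆control. The record of the series calls cKD a conditional knockout of the kinase TBK1 and ∆IKKe a knockout of the related kinase IKKe. The sources used here do not give what drives the conditional deletion, which exons were altered or what ∆control carries. On all records the protocol gives wild-type C57BL/6N as the mouse strain. Macrophage markers were present throughout, with 8 of 8 at 1 CPM (counts scaled to a common library total) or more in all 24 libraries.

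The RNA of the targeted genes bears on the labels. Tbk1 was lower in TBK1-cKD ∆control than in TBK1-WT ∆control, by a log2 difference of -0.36 ± 0.07 after R837 and -0.45 ± 0.07 untreated. In the libraries labelled TBK1-cKD ∆IKKe the Tbk1 differences, -0.08 after R837 and -0.20 untreated, were not called. Ikbke, which encodes IKKe, was not lower in the untreated libraries labelled TBK1-cKD ∆IKKe (6.33, 6.26 and 6.35 log2 CPM, against 5.88, 5.90 and 5.90 in untreated TBK1-WT ∆control). After R837 it stood at 6.28, 6.37 and 8.02 log2 CPM in the libraries labelled TBK1-cKD ∆IKKe and at 8.66, 7.78 and 7.86 in TBK1-WT ∆control, so replicate 3 of that genotype lay with the groups that are not labelled ∆IKKe. In R837 TBK1-WT ∆IKKe it stood at 6.27, 6.14 and 6.31. Counts per gene do not show which exons were altered. For this reason every direction given below for that genotype refers to the libraries labelled TBK1-cKD ∆IKKe.

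Depth ran from 19727746 to 41323219 gene counts per library. Long RNAs that stay in the nucleus (Malat1, Neat1, Xist) divided the libraries: 14 lay at a mean of 8.94 to 9.46 log2 CPM and 10 at 5.25 to 5.64. The 14 were the 12 untreated libraries and 2 R837 libraries, replicate 3 of TBK1-cKD ∆IKKe and replicate 1 of TBK1-WT ∆control. Those R837 libraries also held the highest Tbk1 (7.09 and 7.21 log2 CPM) and Ikbke (8.02 and 8.66) of their groups. In TBK1-cKD ∆control and TBK1-WT ∆IKKe, level and treatment thus coincided. For their R837 changes, a term for this level, used below, draws on the other genotypes alone. In the R837 group of TBK1-cKD ∆control, replicate 2 was the shallowest library of all and had 14226 genes with a count, against 17948 and 17592 in the others. Replicate numbers follow the order of the records, and the labels tie none of them to a shared mouse or batch. Markers of other cells also moved with R837. The summed level of 8 neutrophil markers was 19.8 to 185 CPM in R837 libraries and 1.3 to 7.65 CPM in untreated ones, and that of 6 lymphocyte markers was 39.1 to 68.2 CPM and 257 to 294 CPM. Dendritic cell markers (6 genes) summed to 116 to 207 CPM after R837 and 135 to 244 CPM untreated, mast cell and basophil markers (5 genes) to 0 to 0.442 and 1.09 to 4.25 CPM, and stromal markers (6 genes) to 26.4 to 54.1 and 21.3 to 69.3 CPM. Of the erythroid and megakaryocyte markers, Hbb-bs was at 0 in all libraries, and the list summed to 114 to 225 and 135 to 196 CPM. The part of these cells in the R837 results was not tested, and in bulk RNA fewer cells of a type and less RNA per cell cannot be told apart.

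MAP kinases are switched on by phosphorylation of a threonine and a tyrosine in their activation loop, and the dual-specificity phosphatases coded by Dusp genes remove both phosphates. Dusp1, Dusp10 and Dusp16 act mainly on the stress kinases p38 and JNK, whereas Dusp5 and Dusp6 are selective for ERK, and Toll-like receptor ligands are known to induce Dusp1, which limits cytokine output of macrophages. Sprouty and Spred proteins act further up, between growth factor receptors and the kinase Raf.

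The promoters of Dusp1, Dusp5 and Dusp16 are shown because these genes gave the largest differences of R837 responses between the libraries labelled TBK1-cKD ∆IKKe and TBK1-WT ∆control. The windows are RefSeq sequence on GRCm38.p6 from the 250 bases before the start of the RefSeq gene. The gene spans printed further on are those of GENCODE, whose starts differ, and the Dusp1 window lies inside its GENCODE span. Dusp1 (chr17:26508473-26508722, minus strand) and Dusp16 (chr6:134792629-134792878, minus strand) are 250 bases long. Dusp5 (chr19:53528895-53529094, plus strand) is cut to its first 200 bases. Capitals mark the full cAMP response element TGACGTCA in Dusp1, an SRF-type CArG box followed directly by another in Dusp5, and the shorter core TGACG in Dusp16.
Dusp1: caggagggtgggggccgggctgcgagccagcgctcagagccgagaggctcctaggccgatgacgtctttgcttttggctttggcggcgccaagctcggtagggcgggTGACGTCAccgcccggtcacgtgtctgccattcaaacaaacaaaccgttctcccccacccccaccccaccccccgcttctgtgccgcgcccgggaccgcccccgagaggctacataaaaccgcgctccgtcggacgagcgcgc
Dusp5: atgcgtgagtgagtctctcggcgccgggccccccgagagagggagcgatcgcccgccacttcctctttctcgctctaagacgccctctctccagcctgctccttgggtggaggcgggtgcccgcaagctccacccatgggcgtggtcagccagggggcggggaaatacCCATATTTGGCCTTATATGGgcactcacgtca
Dusp16: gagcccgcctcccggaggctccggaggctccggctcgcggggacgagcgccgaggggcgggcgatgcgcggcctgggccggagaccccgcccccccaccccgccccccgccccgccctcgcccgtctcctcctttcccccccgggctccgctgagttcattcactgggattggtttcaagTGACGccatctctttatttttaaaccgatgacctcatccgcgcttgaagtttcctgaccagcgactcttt

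Motifs were searched on both strands of the 250 bases before the start in the 9 members that have a window and in 32851 windows in all. Dusp4 had no window and was not searched. The full cAMP response element was found in Dusp1 alone among the 9 members searched, 135 bases before the start, and in 1.55% of all windows. CArG boxes were found in Dusp5 alone, at bases 169 to 178 and 179 to 188 of its window, and in 1.47% of all windows. The shorter core TGACG, which also lies within the full element, was found in Dusp1, Dusp5 and Dusp16 and in 17.8% of all windows. No member window held the AP-1 site TGANTCA (6.75% of all windows), the ETS core CCGGAA (12%) or a kB site (7.25%). A match is a run of letters and no measurement of binding.

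The 3′ untranslated region carried another feature of Dusp1. The AU-rich nonamer TTATTTATT, of the kind bound by the RNA-decay protein Zfp36, was found in Dusp1 alone among the 10 members and in 7.66% of 21037 genes (GENCODE M21 transcripts). Dusp1 held 2 copies in its 690 bases, starting at bases 103 and 392, shown with 10 bases on either side and the nonamer in capitals.
Dusp1 first copy: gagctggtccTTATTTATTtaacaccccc
Dusp1 second copy: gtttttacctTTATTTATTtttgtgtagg

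Per length, Dusp1 was the most abundant member after R837, and Spred1 was the most abundant untreated. The 10 genes summed to 314, 217, 244 and 188 RPKM (the deposited reads per kilobase of gene, scaled to library total) after R837 in TBK1-cKD ∆IKKe, TBK1-cKD ∆control, TBK1-WT ∆IKKe and TBK1-WT ∆control, against 143, 157, 136 and 139 RPKM untreated. Dusp1 made up 50.9%, 41.4%, 41.9% and 38.9% of that sum after R837 in the same order, against 18.2%, 16.5%, 15.9% and 14.8% untreated. Spred1 made up 12.4%, 20%, 17% and 19.7% after R837, against 26.8%, 26.6%, 30.2% and 31.8% untreated. Dusp6 followed in untreated TBK1-WT ∆control at 35.0 ± 1.42 RPKM. Next came Dusp1 at 20.5 ± 1.75 RPKM, with Dusp4 close to it at 20 ± 2.11 RPKM (SD, n = 3 each). The least abundant were Dusp10 (0.33 to 1.05 RPKM as group means) and Spry1.

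**Figure D1:**
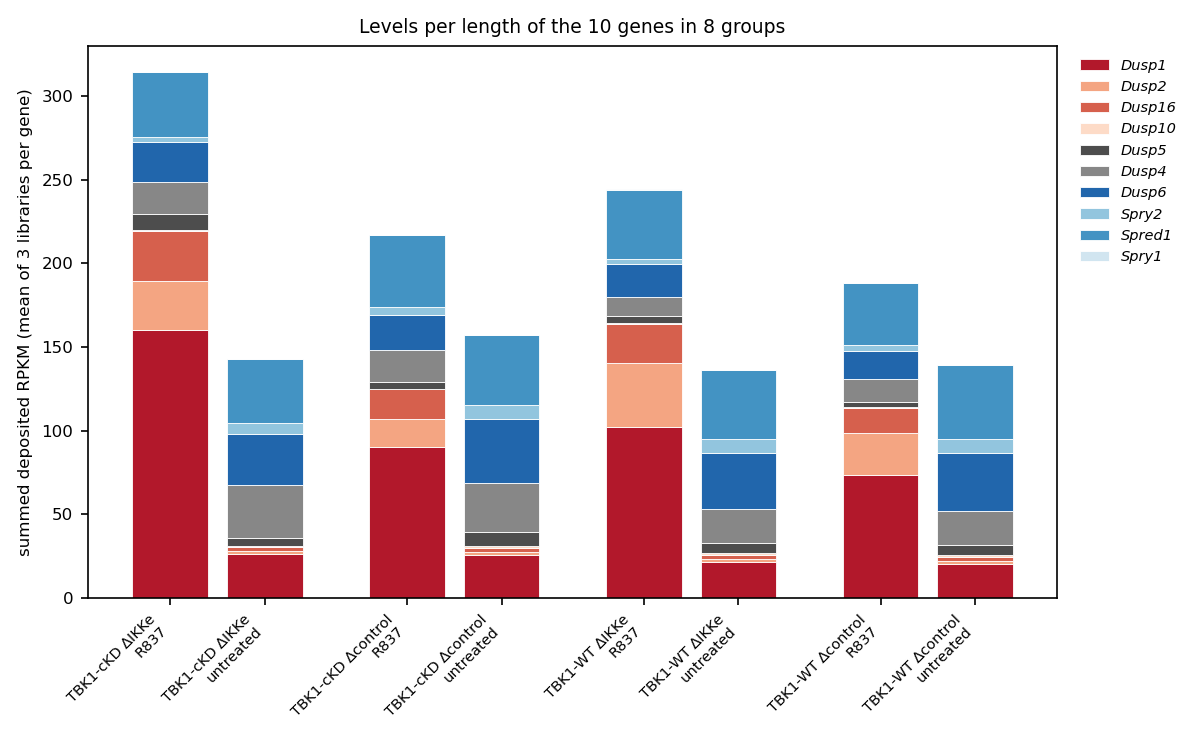
Mean deposited RPKM of the 10 genes (vertical axis, stacked) in the 8 groups (horizontal axis, R837 left of untreated for each genotype; 3 libraries per group). The Dusp1 segment is the tallest in each R837 bar, at 160 RPKM in TBK1-cKD ∆IKKe and 73.3 RPKM in TBK1-WT ∆control, and Spry1 is too low to be seen.

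Of the 10 members, 9 passed the count filter and were tested. Spry1 (GRCm38 chromosome 3, 37639947 to 37644598), an inhibitor of receptor tyrosine kinase signalling, had 1 to 11 counts per library and did not. Its counts were 5, 6 and 8 in R837 libraries labelled TBK1-cKD ∆IKKe, against 3, 1 and 1 in the untreated ones. With no filter on counts its R837 change there was 1.94 ± 0.66 log2 (adjusted p = 0.0175), a value that rests on those few reads. Below, levels are log2 CPM after TMM scaling, changes are log2 values with the standard error of the edgeR fit, and called means a Benjamini-Hochberg adjusted p below 0.05 in edgeR's quasi-likelihood test over 14681 genes.

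R837 moved nearly all of the tested members, in both directions. In TBK1-cKD ∆IKKe 8 of 9 were called (5 up, 3 down), in TBK1-cKD ∆control 9 (4 up, 5 down), in TBK1-WT ∆IKKe 8 (4 up, 4 down) and in TBK1-WT ∆control 8 (3 up, 5 down). The shares of all genes called in the same order were 66.5% (31.6% up, 34.8% down), 69.1% (31.6% up, 37.5% down), 70.2% (32.4% up, 37.8% down) and 62.6% (30.6% up, 32.0% down), so counts of this size are common in these comparisons. The median change of the 9 was 0.39, -0.43, -0.24 and -0.34, beside -0.07, -0.08, -0.07 and -0.04 for all tested genes. What set the members apart from one another was direction: Dusp1, Dusp2 and Dusp16 rose in all 4 genotypes, and Dusp4, Dusp10 and Spry2 fell in all 4.

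**Figure D2:**
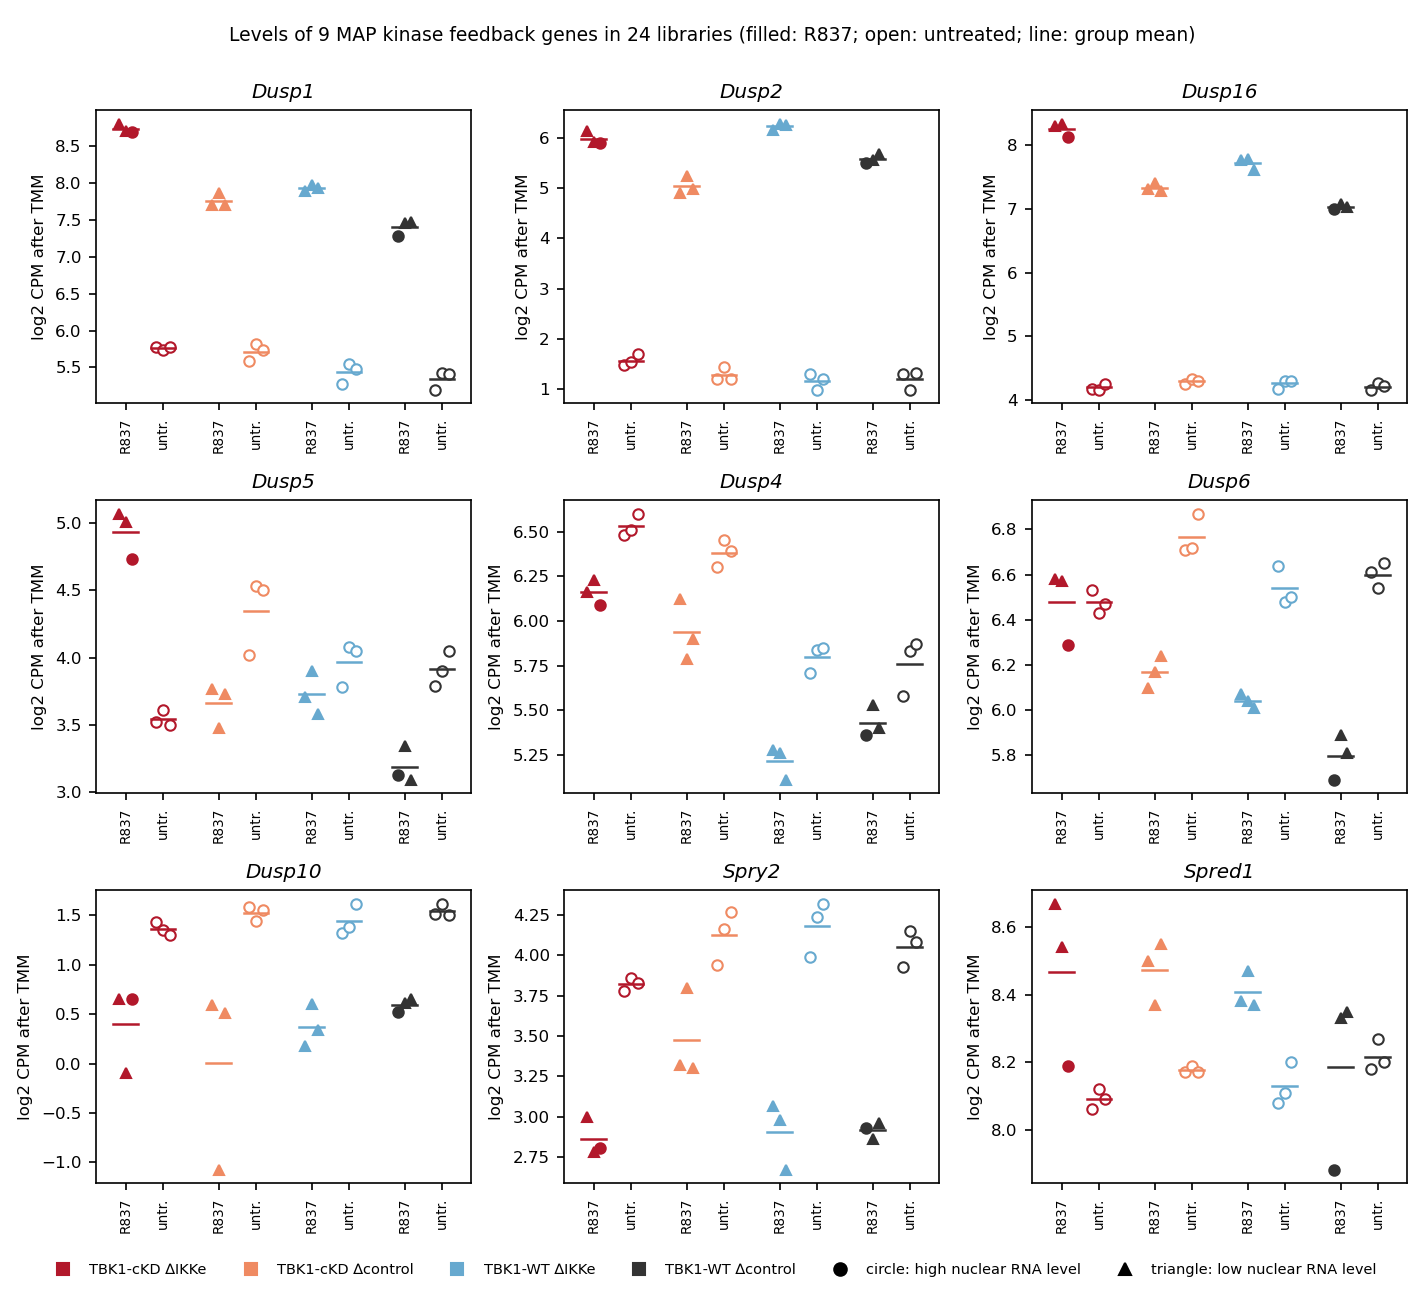
Level of the 9 tested members in each of 24 libraries (vertical axis, log2 CPM after TMM; horizontal axis, R837 left of untreated for each genotype; lines are group means; circles and triangles are libraries of high and low nuclear RNA level). Dusp1, Dusp2 and Dusp16 of every R837 library lie above every untreated library, while Dusp5 after R837 lies at 4.73 to 5.07 in TBK1-cKD ∆IKKe and at 3.09 to 3.34 in TBK1-WT ∆control.

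Dusp1 (ENSMUSG00000024190; GRCm38 chromosome 17, 26505590 to 26562128, minus strand) encodes the nuclear phosphatase MKP-1, which ends p38 and JNK signalling. In TBK1-cKD ∆IKKe it stood at 8.81, 8.71 and 8.69 log2 CPM after R837, against 5.78, 5.74 and 5.78 untreated. In TBK1-cKD ∆control it stood at 7.70, 7.87 and 7.70 after R837, against 5.59, 5.81 and 5.74 untreated. All R837 libraries of both genotypes lay above all untreated ones. In TBK1-WT ∆IKKe the levels were 7.90, 7.98 and 7.94 after R837, against 5.28, 5.54 and 5.48 untreated. In TBK1-WT ∆control they were 7.28, 7.46 and 7.48 after R837, against 5.19, 5.42 and 5.41 untreated. The rises were 2.97 ± 0.08, 2.04 ± 0.08, 2.50 ± 0.08 and 2.07 ± 0.08 in the order of these genotypes (highest adjusted p = 4.85e-15), or 7.83, 4.12, 5.67 and 4.19-fold. Ordered by level, the 4 R837 groups did not overlap one another, with the libraries labelled TBK1-cKD ∆IKKe highest and TBK1-WT ∆control lowest. The annotated span of Dusp1 overlaps Ergic1 on the other strand and a sense-intronic transcript, and libraries made with this kit carry no strand, so reads of the shared stretches cannot be told apart.

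Dusp16 (ENSMUSG00000030203; chromosome 6, 134715468 to 134792625, minus strand) encodes MKP-7, a phosphatase of JNK and p38. Its levels after R837 in TBK1-cKD ∆IKKe were 8.30, 8.33 and 8.12 log2 CPM, against 4.18, 4.17 and 4.26 untreated. In TBK1-WT ∆control they were 6.99, 7.07 and 7.03 after R837, against 4.16, 4.27 and 4.22 untreated. Untreated, the libraries of all 4 genotypes lay within 4.16 to 4.33, whereas after R837 no 2 genotypes overlapped. The remaining R837 levels were 7.30, 7.40 and 7.28 in TBK1-cKD ∆control and 7.76, 7.78 and 7.61 in TBK1-WT ∆IKKe. The rises were 4.05 ± 0.07 in TBK1-cKD ∆IKKe, 3.03 ± 0.07 in TBK1-cKD ∆control, 3.46 ± 0.07 in TBK1-WT ∆IKKe and 2.82 ± 0.07 in TBK1-WT ∆control (highest adjusted p = 1.15e-18), or 16.5, 8.19, 11.0 and 7.06-fold. An antisense transcript, Gm36328, overlaps Dusp16 and cannot be separated from it without strand.

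Dusp10 (ENSMUSG00000039384; chromosome 1, 184013302 to 184075636, plus strand) encodes MKP-5, the third phosphatase that prefers p38 and JNK, and it moved the opposite way. It had 27 to 58 counts in 11 of the 12 R837 libraries, 8 in replicate 2 of TBK1-cKD ∆control, and 59 to 135 in untreated libraries. Its levels after R837 in TBK1-WT ∆control were 0.52, 0.61 and 0.65 log2 CPM, against 1.51, 1.62 and 1.5 untreated, with no overlap. It fell by 0.92 ± 0.24 in TBK1-cKD ∆IKKe, by 1.29 ± 0.25 in TBK1-cKD ∆control, by 1.08 ± 0.24 in TBK1-WT ∆IKKe and by 0.96 ± 0.23 in TBK1-WT ∆control (highest adjusted p = 0.00211). Without replicate 2 of R837 TBK1-cKD ∆control, the fall there was -0.98 (adjusted p = 7.63e-05). The gene 1700056E22Rik overlaps Dusp10 on the other strand.

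Dusp2 (ENSMUSG00000027368; chromosome 2, 127336159 to 127338376, plus strand) encodes PAC-1, a nuclear phosphatase found in activated white blood cells. It gave the largest change of the 9 in each genotype. In TBK1-cKD ∆IKKe it reached 6.14, 5.91 and 5.90 log2 CPM after R837, against 1.48, 1.53 and 1.69 untreated. In TBK1-WT ∆control it reached 5.50, 5.55 and 5.67 after R837, against 0.98 to 1.33 untreated. The R837 groups did not overlap, but their order differed from that of Dusp1 and Dusp16: TBK1-WT ∆IKKe was highest at 6.16, 6.28 and 6.25, and TBK1-cKD ∆control lowest at 4.91, 5.24 and 4.98. Dusp2 rose by 4.42 ± 0.12 in TBK1-cKD ∆IKKe, 3.77 ± 0.12 in TBK1-cKD ∆control, 5.04 ± 0.12 in TBK1-WT ∆IKKe and 4.37 ± 0.12 in TBK1-WT ∆control (highest adjusted p = 8.1e-17), or 21.5, 13.6, 33 and 20.7-fold.

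Dusp5 (ENSMUSG00000034765; chromosome 19, 53529109 to 53542431, plus strand) encodes a nuclear phosphatase selective for ERK. It was the member whose direction differed between genotypes. In TBK1-cKD ∆IKKe its levels were 5.07, 5.01 and 4.73 log2 CPM after R837, against 3.52, 3.61 and 3.50 untreated. In TBK1-cKD ∆control they were 3.77, 3.48 and 3.73 after R837, against 4.02, 4.53 and 4.50 untreated. R837 libraries thus lay above all untreated ones in the first of these genotypes and below all of them in the second. In TBK1-WT ∆IKKe the levels were 3.71, 3.90 and 3.58 after R837, against 3.78, 4.08 and 4.05 untreated, with overlap. In TBK1-WT ∆control they were 3.13, 3.34 and 3.09 after R837, against 3.79, 3.90 and 4.05 untreated, without overlap. In the libraries labelled TBK1-cKD ∆IKKe, Dusp5 rose by 1.40 ± 0.13 (adjusted p = 6.71e-09), where leaving out R837 replicate 3 gave 1.5. It fell by 0.69 ± 0.13 in TBK1-cKD ∆control (adjusted p = 0.000118) and by 0.73 ± 0.13 in TBK1-WT ∆control (adjusted p = 7.79e-05). The value of -0.24 ± 0.13 in TBK1-WT ∆IKKe was not called (adjusted p = 0.119), but it was with a term for that nuclear RNA level (-0.45, adjusted p = 0.0341). Level and treatment coincided in that genotype, so the term drew on other genotypes alone. An antisense transcript, AC137853.2, overlaps Dusp5.

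Dusp4 (ENSMUSG00000031530; chromosome 8, 34807297 to 34819894, plus strand) encodes MKP-2, a nuclear phosphatase of ERK and JNK. After R837 it stood at 6.16, 6.23 and 6.09 log2 CPM in TBK1-cKD ∆IKKe, against 6.48, 6.51 and 6.60 untreated. In TBK1-WT ∆control it stood at 5.36, 5.53 and 5.4 after R837, against 5.58, 5.83 and 5.87 untreated. R837 libraries lay below untreated ones in each genotype, and the falls were -0.37 ± 0.09 in TBK1-cKD ∆IKKe, -0.43 ± 0.09 in TBK1-cKD ∆control, -0.58 ± 0.09 in TBK1-WT ∆IKKe and -0.34 ± 0.09 in TBK1-WT ∆control (highest adjusted p = 0.00208). These were the smallest of the changes that passed the test in all 4 genotypes.

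Dusp6 (ENSMUSG00000019960; chromosome 10, 99263231 to 99267489, plus strand) encodes the cytoplasmic ERK phosphatase MKP-3. In TBK1-cKD ∆IKKe it stood at 6.58, 6.57 and 6.29 log2 CPM after R837, against 6.53, 6.43 and 6.47 untreated. The R837 libraries spanned the untreated ones there, with replicate 3 lowest. In TBK1-cKD ∆control the levels were 6.10, 6.17 and 6.24 after R837, against 6.71, 6.72 and 6.87 untreated. In TBK1-WT ∆IKKe they were 6.07, 6.04 and 6.01 after R837, against 6.64, 6.48 and 6.5 untreated. In TBK1-WT ∆control they were 5.69, 5.89 and 5.81 after R837, against 6.61, 6.54 and 6.65 untreated. Those 3 genotypes did not overlap between treatments, and Dusp6 fell by 0.60 ± 0.07, 0.50 ± 0.07 and 0.80 ± 0.07 in them (highest adjusted p = 4.5e-06). In the libraries labelled TBK1-cKD ∆IKKe the change was 0.01 ± 0.07 (adjusted p = 0.913), and 0.10 without R837 replicate 3 (adjusted p = 0.199); without R837 replicate 1, R837 replicate 2 or untreated replicate 2 it was -0.04, -0.03 and -0.01.

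The scaling bears on changes of this size. When libraries were scaled by their sum of counts only, an alternative added after the data were seen, the median change of all genes with R837 was -0.45, -0.37, -0.38 and -0.31 in TBK1-cKD ∆IKKe, TBK1-cKD ∆control, TBK1-WT ∆IKKe and TBK1-WT ∆control. Dusp6 then fell by 0.38 in TBK1-cKD ∆IKKe (adjusted p = 1.6e-05), which is near the shift of the median gene, and Dusp5 fell by 0.55 in TBK1-WT ∆IKKe (adjusted p = 0.00064). Dusp4 fell by 0.76, 0.72, 0.89 and 0.60 under that scaling in the order given, and Dusp6 by 0.81 in TBK1-WT ∆IKKe. The deposited RPKM of Dusp6, which are scaled by a library total, were 23.9 ± 2.10 after R837 and 30.4 ± 0.894 untreated in TBK1-cKD ∆IKKe.

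**Figure D3:**
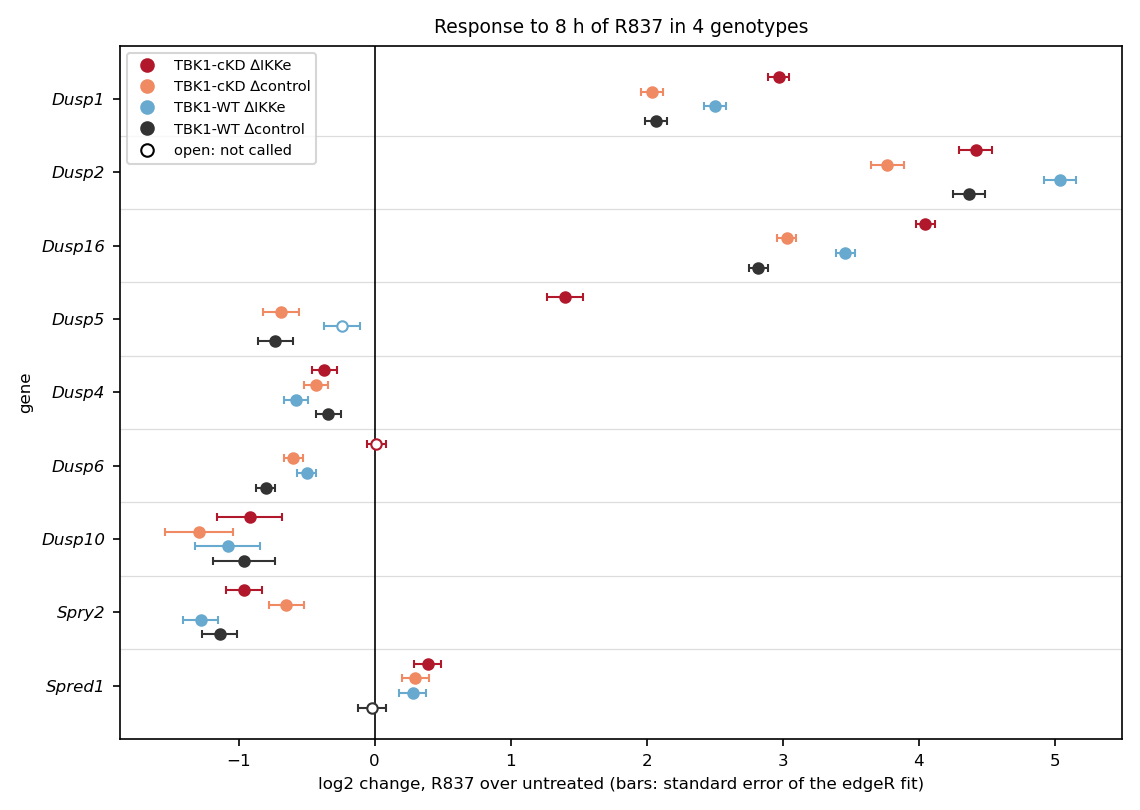
Log2 change with R837 (horizontal axis; bars are the standard error of the edgeR fit) for the 9 tested members in 4 genotypes, with open circles for changes that were not called. Dusp5 lies at 1.40 in TBK1-cKD ∆IKKe and at -0.73 in TBK1-WT ∆control, and Dusp6 at 0.01 and -0.80.

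Spry2 (ENSMUSG00000022114; chromosome 14, 105891947 to 105896819, minus strand) encodes a Sprouty protein that dampens signals from growth factor receptors to ERK. Its levels after R837 in TBK1-cKD ∆IKKe were 3.00, 2.78 and 2.81 log2 CPM, against 3.78, 3.86 and 3.83 untreated. In TBK1-cKD ∆control they were 3.32, 3.80 and 3.30 after R837, against 3.94, 4.16 and 4.27 untreated. In TBK1-WT ∆control they were 2.93, 2.86 and 2.96 after R837, against 3.93, 4.15 and 4.08 untreated. R837 libraries lay below untreated ones in each genotype, closest in TBK1-cKD ∆control. The falls were -0.96 ± 0.13 in TBK1-cKD ∆IKKe, -0.65 ± 0.13 in TBK1-cKD ∆control, -1.28 ± 0.13 in TBK1-WT ∆IKKe and -1.14 ± 0.13 in TBK1-WT ∆control (highest adjusted p = 0.000141).

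Spred1 (ENSMUSG00000027351; chromosome 2, 117121374 to 117182279, plus strand) encodes a Sprouty-related protein that brings the Ras GTPase-activating protein neurofibromin to the membrane. Its R837 levels in TBK1-cKD ∆IKKe were 8.67, 8.54 and 8.19 log2 CPM, against 8.06, 8.12 and 8.09 untreated. In TBK1-WT ∆control they were 7.88, 8.33 and 8.35 after R837, against 8.18, 8.27 and 8.20 untreated. The lowest R837 value in each was the library of high nuclear RNA level, which in TBK1-WT ∆control lay below all untreated libraries while the other 2 lay above. The changes were 0.39 ± 0.10 in TBK1-cKD ∆IKKe (adjusted p = 0.00249), 0.30 ± 0.10 in TBK1-cKD ∆control (0.0152), 0.28 ± 0.10 in TBK1-WT ∆IKKe (0.0230) and -0.02 ± 0.10 in TBK1-WT ∆control (0.902). With a term for the nuclear RNA level they became 0.09, -0.14, -0.16 and -0.32. The falls in TBK1-WT ∆IKKe (adjusted p = 0.0462) and TBK1-WT ∆control (adjusted p = 2.37e-05) were then called. Level and treatment coincided in TBK1-cKD ∆control and TBK1-WT ∆IKKe, so the term there drew on the other genotypes alone. With libraries scaled by their sum of counts the changes were -0.01, 0.01, -0.03 and -0.29, so the rises of Spred1 depended on both settings. The -0.29 in TBK1-WT ∆control was called (adjusted p = 0.00634). Leaving out R837 replicate 1 of TBK1-WT ∆control gave 0.17 there (adjusted p = 0.119), and leaving out its untreated replicate 2 gave 0.01. The rise in TBK1-WT ∆IKKe was no longer called without its untreated replicate 1 (0.25), untreated replicate 2 (0.27) or R837 replicate 2 (0.24), and that in TBK1-cKD ∆control was not called without R837 replicate 3 (0.26).

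Untreated genotypes were compared with untreated TBK1-WT ∆control to ask whether the altered kinases changed these genes at rest. Dusp4 and Dusp1 were higher in both TBK1-cKD genotypes, 2 of 9 tested members in each, where 13.6% of all genes were called in TBK1-cKD ∆IKKe (8.52% up, 5.1% down) and 5.05% in TBK1-cKD ∆control (2.4% up, 2.65% down). Untreated Dusp4 stood at 6.48, 6.51 and 6.60 log2 CPM in TBK1-cKD ∆IKKe, at 6.30, 6.45 and 6.39 in TBK1-cKD ∆control and at 5.58, 5.83 and 5.87 in TBK1-WT ∆control. Neither group overlapped TBK1-WT ∆control, and the differences were 0.76 ± 0.09 (adjusted p = 1.37e-06) and 0.62 ± 0.09 (adjusted p = 0.000113). Dusp1 was higher by 0.42 ± 0.08 (adjusted p = 0.000607) and by 0.38 ± 0.08 (adjusted p = 0.00543). Without untreated replicate 1 of TBK1-WT ∆control the Dusp1 difference in TBK1-cKD ∆control was 0.30 (adjusted p = 0.0552).

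Dusp5 lay on opposite sides in the untreated TBK1-cKD genotypes, though neither difference was called. It was -0.37 ± 0.13 in TBK1-cKD ∆IKKe (adjusted p = 0.0687) and 0.44 ± 0.13 in TBK1-cKD ∆control (adjusted p = 0.0515), and both were called by DESeq2 (-0.40, adjusted p = 0.0348, and 0.43, adjusted p = 0.0309). Both were also called in fits of the compared groups alone, with a nuclear RNA level term and in libraries of high level only. All untreated libraries were of high level, so the term and the high level fit could not adjust these differences for that level. By sum of counts the first was called (-0.46), and with no count filter the second was. Without untreated replicate 1 of TBK1-cKD ∆control the second was 0.60 (adjusted p = 0.00578). In TBK1-WT ∆IKKe 0 of 9 members were called, beside 0% of all genes. The differences there ran from -0.10 to 0.13, no member had an unadjusted p below 0.05 (422 genes did), and DESeq2 called 0 members and 1 gene. The 95% intervals of those differences reached at most 0.37, for Spry2, and down to -0.54, for Dusp10.

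After R837 the members were compared with R837 TBK1-WT ∆control. In the libraries labelled TBK1-cKD ∆IKKe 7 of 9 were higher and none lower, with a median of 0.69 beside -0.01 for all genes, of which 32.2% were called (16.7% up, 15.5% down). In TBK1-cKD ∆control 6 were higher and 1 lower, beside 8.89% of all genes (4.48% up, 4.41% down), and in TBK1-WT ∆IKKe 4 were higher and none lower, beside 1.85% of all genes (1.14% up, 0.708% down). These comparisons share the TBK1-WT ∆control libraries. Dusp5 differed most in TBK1-cKD ∆IKKe, by 1.76 ± 0.13 (adjusted p = 1.48e-09; 3.38-fold). Dusp1 followed with 1.33 ± 0.08 (adjusted p = 2.68e-11) and Dusp16 with 1.22 ± 0.06 (adjusted p = 2.63e-12), and these 3 were also higher in TBK1-WT ∆IKKe, by 0.55 ± 0.14, 0.53 ± 0.08 and 0.68 ± 0.06. In TBK1-cKD ∆control the same 3 were higher by 0.48 ± 0.14, 0.35 ± 0.08 and 0.29 ± 0.06. In TBK1-cKD ∆IKKe the 3 values were 1.85, 1.35 and 1.28 without its R837 replicate 3, and 1.72, 1.26 and 1.19 without R837 replicate 1 of TBK1-WT ∆control.

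Dusp5 in both single genotypes was close to the threshold. Its adjusted p was 0.0315 in TBK1-cKD ∆control and 0.0399 in TBK1-WT ∆IKKe. In TBK1-WT ∆IKKe it was no longer called without R837 replicate 1 or 3 of TBK1-WT ∆control (0.51 and 0.50) or without R837 replicate 1 or 2 of its own group (0.56 and 0.46). In TBK1-cKD ∆control it was no longer called without R837 replicate 1 or 3 of TBK1-WT ∆control (0.45 and 0.44) or of its own group (0.43 and 0.45). Neither was called in a fit of the compared groups alone, with the nuclear RNA term or in libraries of low level only, and that in TBK1-WT ∆IKKe was not called by sum of counts (0.49). The difference of Dusp1 in TBK1-WT ∆IKKe was not called in the compared groups alone either (0.52, adjusted p = 0.0623).

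Dusp2 moved in opposite directions in the TBK1-cKD genotypes after R837. It was higher by 0.41 ± 0.09 in TBK1-cKD ∆IKKe (adjusted p = 0.00176) and lower in TBK1-cKD ∆control by a log2 difference of -0.53 ± 0.10 (adjusted p = 0.00112), and it was higher by 0.65 ± 0.09 in TBK1-WT ∆IKKe (adjusted p = 0.00038). With libraries scaled by their sum of counts the value in TBK1-cKD ∆IKKe was 0.20 (adjusted p = 0.0896). Dusp4, the nuclear ERK and JNK phosphatase, was higher by 0.73 ± 0.09 and 0.52 ± 0.09 in TBK1-cKD ∆IKKe and TBK1-cKD ∆control (highest adjusted p = 0.000597), as it was untreated, and gave -0.21 ± 0.09 in TBK1-WT ∆IKKe, which was not called. Dusp6 was higher by 0.69 ± 0.07 in TBK1-cKD ∆IKKe and 0.37 ± 0.07 in TBK1-cKD ∆control (highest adjusted p = 0.00272), and its 0.24 ± 0.07 in TBK1-WT ∆IKKe was not called.

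Spry2 was higher in TBK1-cKD ∆control alone among the 3 comparisons, by 0.56 ± 0.13 (adjusted p = 0.00935), against -0.05 ± 0.13 in TBK1-cKD ∆IKKe and -0.00 ± 0.13 in TBK1-WT ∆IKKe. Without R837 replicate 2 of TBK1-cKD ∆control, the library with the fewest counts, its value was 0.40 (adjusted p = 0.0591), and in libraries of low level only it was 0.57 (adjusted p = 0.0911). Spred1 gave 0.27 in TBK1-cKD ∆control and 0.21 in TBK1-WT ∆IKKe, neither called, although the first was called with the nuclear RNA term (0.14). In TBK1-cKD ∆IKKe it was higher by 0.28 ± 0.10 (adjusted p = 0.0473) with overlapping groups. It was not called there without R837 replicate 1 of TBK1-WT ∆control (0.13) or without R837 replicate 1 or 2 of TBK1-cKD ∆IKKe (0.17 and 0.24), in a fit of the compared groups alone (0.25) or by sum of counts (0.07). Dusp10 was not called in any of the 3 comparisons, with values from -0.34 to -0.15. When TBK1-cKD ∆control and TBK1-WT ∆control after R837 were fitted on their own 6 libraries, 0 of the 7 calls passed, with adjusted p from 0.124 to 0.296 for the 7 and 40 genes called in all. Without R837 replicate 2 of TBK1-cKD ∆control in the fit of all groups, 6 of the 7 were still called, with Dusp1 at 0.29, Dusp5 at 0.56 and Dusp2 at -0.63.

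**Figure D4:**
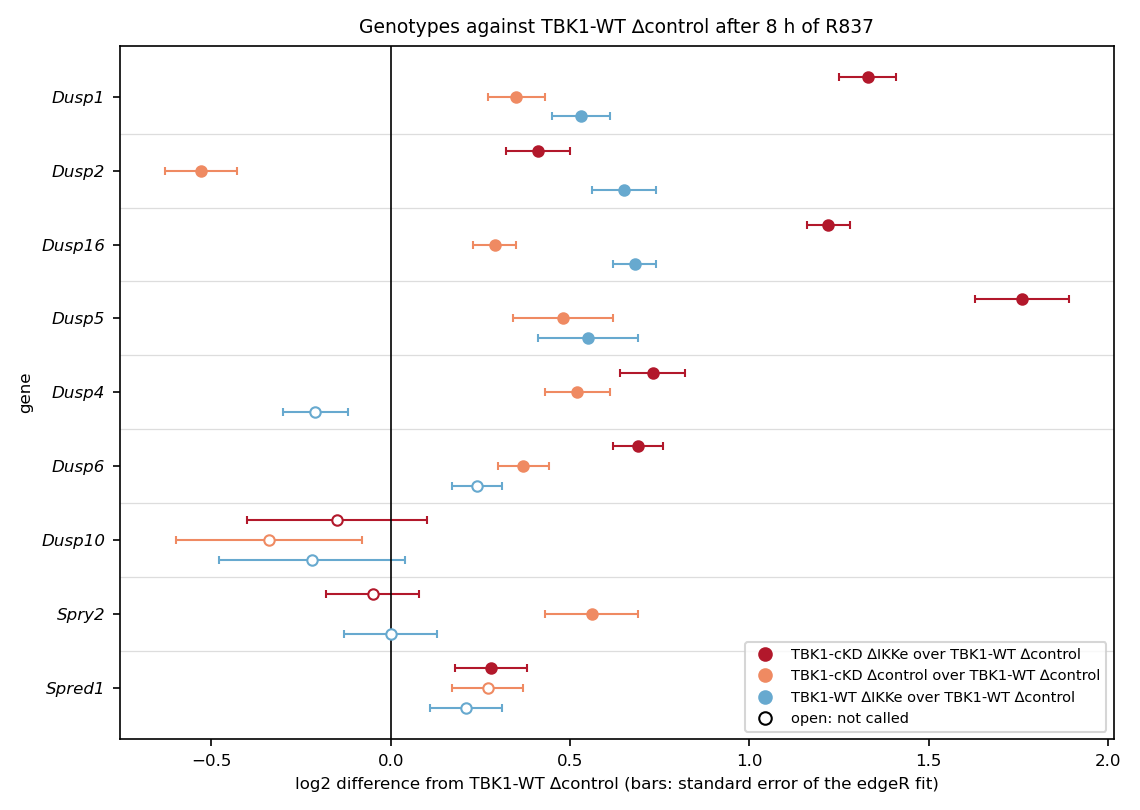
Log2 difference from TBK1-WT ∆control after R837 (horizontal axis; bars are the standard error of the edgeR fit) for the 9 tested members in the 3 other genotypes, with open circles where the difference was not called. The points of TBK1-cKD ∆IKKe lie farthest right for Dusp5 (1.76), Dusp1 (1.33) and Dusp16 (1.22), and Dusp2 is at -0.53 in TBK1-cKD ∆control.

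The libraries labelled TBK1-cKD ∆IKKe were also set against each single genotype after R837. Against TBK1-cKD ∆control, 6 of 9 members were called beside 34.5% of all genes (18.3% up, 16.2% down). Dusp5 was higher by 1.27 ± 0.13, Dusp1 by 0.98 ± 0.08, Dusp2 by 0.94 ± 0.10, Dusp16 by 0.92 ± 0.06 and Dusp6 by 0.32 ± 0.07, and Spry2 was lower, at -0.61 ± 0.13 (highest adjusted p = 0.00215). Fitted on these 6 libraries alone, Dusp6 (0.30, adjusted p = 0.0999) and Spry2 (-0.64, adjusted p = 0.0586) were not called. Dusp4 gave 0.21 ± 0.09 and was not called, but was without R837 replicate 1 of TBK1-cKD ∆control (0.31, adjusted p = 0.0105) and with the nuclear RNA term (0.24). Against TBK1-WT ∆IKKe, 5 of 9 were called, all higher, beside 30.6% of all genes (16.5% up, 14.2% down). Dusp5 was higher by 1.21 ± 0.13, Dusp4 by 0.94 ± 0.09, Dusp1 by 0.80 ± 0.08, Dusp16 by 0.53 ± 0.06 and Dusp6 by 0.45 ± 0.07 (highest adjusted p = 7.89e-05). Dusp2 gave -0.24 ± 0.09 and was not called, although the libraries did not overlap; without R837 replicate 1 of TBK1-cKD ∆IKKe it was -0.32 (adjusted p = 0.0178), by sum of counts -0.39 and with the nuclear RNA term -0.20, each called. Without R837 replicate 3 of TBK1-cKD ∆IKKe, the library with high Ikbke, Dusp5, Dusp1 and Dusp16 were 1.37, 1.0 and 0.98 above TBK1-cKD ∆control and 1.31, 0.82 and 0.59 above TBK1-WT ∆IKKe.

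Whether the R837 response itself differed was tested as the response in each genotype minus that in TBK1-WT ∆control. In TBK1-cKD ∆IKKe, 4 of 9 members had a more positive R837 change, beside 17.3% of all genes (7.38% up, 9.96% down). Dusp5 differed by 2.13 ± 0.19 (adjusted p = 4.23e-08), Dusp16 by 1.23 ± 0.09 (adjusted p = 2.6e-09), Dusp1 by 0.90 ± 0.11 (adjusted p = 3.57e-06) and Dusp6 by 0.81 ± 0.10 (adjusted p = 6.26e-06). For Dusp1 and Dusp16 this was a larger rise, for Dusp5 a rise against a fall, and for Dusp6 a change of 0.01 against a fall of -0.80. All 3 R837 libraries labelled TBK1-cKD ∆IKKe lay above the R837 libraries of TBK1-WT ∆control for each of these genes. Without R837 replicate 3 of TBK1-cKD ∆IKKe the differences were 2.22, 1.29, 0.92 and 0.90, and without R837 replicate 1 of TBK1-WT ∆control they were 2.09, 1.2, 0.83 and 0.75. Spred1 gave 0.40 ± 0.15 (adjusted p = 0.0640) and was called without R837 replicate 3 of TBK1-cKD ∆IKKe (0.53), R837 replicate 2 of TBK1-WT ∆control (0.47) or its R837 replicate 3 (0.48). It was also called by DESeq2 (0.43, adjusted p = 0.0373), with the nuclear RNA term (0.41) and in libraries of high level only (0.45).

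In TBK1-WT ∆IKKe, 1 of 9 response differences was called beside 0.245% of all genes (0.129% up, 0.116% down). It was Dusp16, at 0.64 ± 0.09 (adjusted p = 0.00158), while Dusp2 gave 0.67 ± 0.16 (adjusted p = 0.113) and Dusp1 0.44 ± 0.11 (adjusted p = 0.159). DESeq2 (adjusted p = 0.0402) and the fit with the nuclear RNA term (0.40, adjusted p = 0.0459) called Dusp1 as well. In TBK1-cKD ∆control, 0 of 9 were called beside 0.879% of all genes (0.674% up, 0.204% down). There 4 members and 1558 genes had an unadjusted p below 0.05, and DESeq2 called 0 members and 252 genes. Dusp2 had the largest value, -0.61 ± 0.16 (adjusted p = 0.0895), and was called without R837 replicate 2 of that genotype (-0.71, adjusted p = 0.0288) and with the nuclear RNA term (-0.65, adjusted p = 0.0327).

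**Figure D5:**
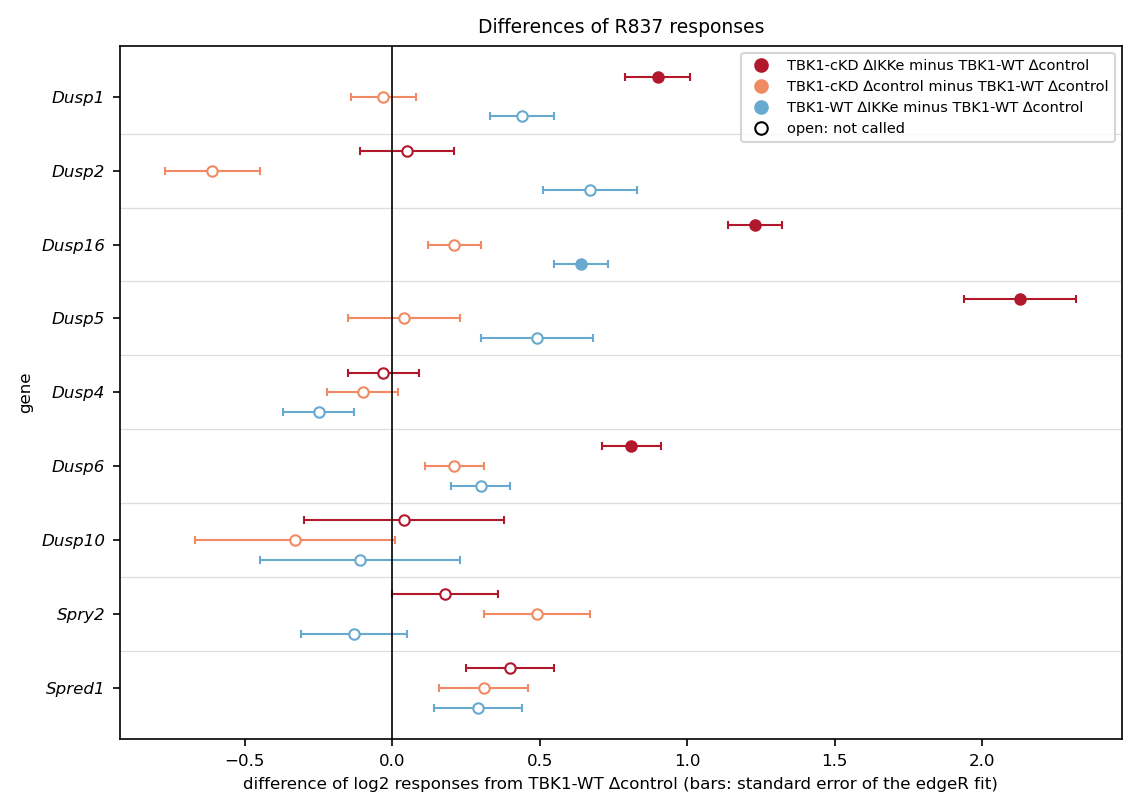
Difference of the log2 response to R837 from that of TBK1-WT ∆control (horizontal axis; bars are the standard error of the edgeR fit) for the 9 tested members in 3 genotypes, with open circles where it was not called. Only 5 points are filled: Dusp5 (2.13), Dusp16 (1.23), Dusp1 (0.90) and Dusp6 (0.81) in TBK1-cKD ∆IKKe and Dusp16 (0.64) in TBK1-WT ∆IKKe.

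The interaction of the 2 labels after R837 asked whether the difference of TBK1-cKD ∆IKKe from TBK1-cKD ∆control exceeded that of TBK1-WT ∆IKKe from TBK1-WT ∆control. It was called for 4 of 9 members, beside 22.2% of all genes (13.3% up, 8.9% down). Dusp5 gave 0.73 ± 0.19 (adjusted p = 0.0109), Dusp1 0.45 ± 0.11 (adjusted p = 0.00719), Dusp4 0.43 ± 0.12 (adjusted p = 0.0189) and Spry2 -0.61 ± 0.19 (adjusted p = 0.0258). Dusp16 gave 0.24 ± 0.09 (adjusted p = 0.0516) and was called without R837 replicate 3 of TBK1-cKD ∆IKKe (0.30) or R837 replicate 2 of TBK1-cKD ∆control (0.28). Dusp2 gave 0.29 ± 0.13 (adjusted p = 0.120), and 0.39 without that replicate 2 (adjusted p = 0.0383). Spry2 was no longer called without R837 replicate 1 or 2 of TBK1-WT ∆IKKe (-0.53 and -0.58), R837 replicate 2 of TBK1-cKD ∆control (-0.45) or R837 replicate 3 of TBK1-cKD ∆IKKe (-0.58). Dusp4 was no longer called without R837 replicate 3 of TBK1-WT ∆IKKe (0.37). In a fit on the R837 groups alone Dusp4 (adjusted p = 0.0735) and Spry2 (adjusted p = 0.125) were not called. With the nuclear RNA term Dusp16 (0.33) and Dusp2 (0.37) were called and Spry2 (-0.58) was not, and in libraries of low level only Dusp16 (0.32) was called and Spry2 (-0.60) was not.

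Members were compared with one another over the 8 group means, each centred on its own mean. The nearest pairs were Dusp4 and Dusp6, with a root mean square difference of 0.30 log2, and Dusp10 and Spry2, with 0.33. Dusp1 and Dusp16 differed by 0.49 and Dusp1 and Dusp2 by 1.06. Members with small changes score low on this measure even where they move differently. Dusp6 and Spred1 differed by 0.37. Yet with R837 they moved oppositely in TBK1-cKD ∆control (-0.60 and 0.30) and TBK1-WT ∆IKKe (-0.50 and 0.28), if not in the other genotypes. Over all tested genes, the pattern nearest to Dusp1 was that of the mitochondrial nucleotide carrier Slc25a33 (0.11) and then Plek (0.14), and that nearest to Dusp16 was the glycerol kinase gene Gk (0.11). Nearest to Dusp5 were the stromelysin gene Mmp10 (0.15) and Tle3 (0.17), to Dusp2 the transcription factor gene Batf (0.28), to Dusp6 the adhesion molecule gene Alcam (0.03) and to Dusp4 Myo10 and Fam135a (0.15 each). Rbmx2 (0.07) was nearest to Dusp10, Tceal9 (0.06) to Spry2, and Gm10676 and Stambp (0.04 each) were nearest to Spred1. Gm37498 (0.30), Cemip2 (0.14), Wdfy1 (0.10) and Gm47293 (0.10) were second for Dusp2, Dusp16, Dusp6 and Spry2. These are the smallest values among 14681 genes and carry no test.

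Other genes of the pathway also changed with R837 in TBK1-WT ∆control, where 62.6% of all genes were called. Among 15 other phosphatases tested, 4 rose and 7 fell. Dusp22 fell by 2.14 ± 0.12 log2 (6.05 ± 0.61 CPM after R837, 32.0 ± 1.35 untreated) and Dusp8, a JNK phosphatase, by 2.20 ± 0.28. The rises were smaller, with Dusp28 at 0.43 ± 0.13 and Dusp18 at 0.33 ± 0.11 (highest adjusted p = 0.0141). Of 10 further Sprouty, Spred and Ras GTPase-activating genes, 3 rose and 5 fell. Spred2, a close relative of Spred1, rose by 0.72 ± 0.08. The rise of Spred3, 0.43 ± 0.18, was close to the threshold (adjusted p = 0.0455). Its R837 libraries were widely spread (9.78 ± 3.15 CPM, against 8.71 ± 0.248 untreated). Rasal1 fell by 2.69 ± 0.17 and Dab2ip by 1.73 ± 0.28, both of which code for Ras GTPase-activating proteins.

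Of 29 genes of MAP kinases and of kinases above or below them, 14 rose and 4 fell with R837 in TBK1-WT ∆control. The called share was near the 62.6% of all genes (30.6% up, 32% down). Map3k8, which encodes the kinase TPL-2 that couples Toll-like receptors to ERK, rose by 2.43 ± 0.08 (64.4 ± 4.13 CPM after R837, 14.4 ± 1.02 untreated). Mapkapk2, a p38 substrate kinase, rose by 2.06 ± 0.14. Map3k5 (ASK1) fell by 0.91 ± 0.12 and Map2k6, a kinase of p38, by 2.19 ± 0.19, whereas the Map2k6 value in the libraries labelled TBK1-cKD ∆IKKe was 0.41. Among 16 genes between receptors and Ras, 10 rose and 4 fell. A pair of Ras exchange factor genes moved oppositely: Rasgrp1 rose by 6.75 ± 0.21 (1523 counts in the 3 R837 libraries, 17 in the untreated) and Rasgrp3 fell by 6.75 ± 0.17 (112 and 14866 counts). In the libraries labelled TBK1-cKD ∆IKKe the Rasgrp1 value was 2.41 and the Rasgrp3 value -8.70. Gab1, an adaptor, rose by 2.34 ± 0.09, and Cblb, a ubiquitin ligase, fell by 1.07 ± 0.08.

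Genes downstream of ERK did not move together. Of 15 tested in TBK1-WT ∆control, 8 rose and 7 fell, with a median of 0.45 beside -0.04 for all genes, of which 62.6% were called. Ier3 rose by 4.91 ± 0.21 (90.8 ± 5.79 CPM after R837, 3.63 ± 0.0532 untreated) and Epha4 by 5.22 ± 0.38, on 164 and 5 counts. Fosb fell by 4.53 ± 0.49 (9 and 262 counts) and Egr3 by 3.61 ± 0.26. Fosb gave -2.33 and Egr3 -2.13 in the libraries labelled TBK1-cKD ∆IKKe. Of 13 inflammatory, RNA-binding and glucocorticoid-induced genes often studied beside Dusp1, 9 rose and 4 fell. Il1b rose by 11.54 ± 0.20, Il6 had 1645 counts in the 3 R837 libraries and 0 in the untreated, and Zfp36l1 and Fkbp5 fell by 2.06 ± 0.10 and 1.80 ± 0.10.

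Between genotypes after R837, these lists were called as follows against TBK1-WT ∆control. In TBK1-cKD ∆IKKe, where 32.2% of all genes were called, 4 of 15 phosphatases were higher and 3 lower, and 2 of 10 Sprouty, Spred and Ras GTPase-activating genes were higher and 4 lower. There 10 of 29 MAP kinases and their kinases were higher and 5 lower, 4 of 16 receptor-to-Ras genes higher and 4 lower, 5 of 15 ERK output genes higher and 5 lower, and 9 of the 13 genes studied beside Dusp1 higher and 2 lower. In TBK1-cKD ∆control, where 8.89% of all genes were called, 5 of the 13 genes studied beside Dusp1 were higher and 3 lower, and 2 ERK output genes were higher and 1 lower. No other phosphatase was called there, 1 MAP kinase list gene was higher, and 1 gene each of the Sprouty and receptor-to-Ras lists was lower. In TBK1-WT ∆IKKe, where 1.85% of all genes were called, 4 of the 13 genes studied beside Dusp1 were higher, 2 ERK output genes were lower and 1 receptor-to-Ras gene was higher, and no gene of the other 3 lists was called.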

How the data were processed

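Per the labels, the libraries were TruSeq RNA v2, read as single ends of 50 bp. The deposited counts are whole reads for each Ensembl gene; the submitters' processing notes name GSNAP and GRCm38, and the sources used here give neither counter nor annotation. The authors' deposited RPKM use a library total above the sum of gene counts and served only for levels across genes. The 233 identifiers without a symbol held 0.0187% of counts and were fitted like the others; 0 columns were unused. Treatment was read from titles.

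Counts were fitted in edgeR 4.0.16 (R 4.3.3): filterByExpr (minimum count 10, minimum total 15; 14681 genes), TMM, 1 mean per group over 24 libraries, quasi-likelihood F test, Benjamini-Hochberg adjustment within each of 16 comparisons, threshold 0.05. The fit had 16 residual degrees of freedom and a common biological coefficient of variation of 0.116. Standard errors come from the log2 change and F. Log2 CPM carry an offset of 0.5; CPM are not TMM-scaled. The steps were tested on simulated counts. DESeq2 1.42.0 was an alternative. Members and lists were chosen with earlier results of these data known. All members were named, with the 2 largest rises and falls of each list and the 2 most alike genes per member, except items not reported here.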

Additional observations from a re-analysis of the deposited data

Results flagged for a closer look

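Differences from TBK1-WT ∆control in the response to R837 passed their own test for 4 members in TBK1-cKD ∆IKKe, beside 17.3% of all genes. Relative to TBK1-WT ∆control the R837 change was more positive in the libraries labelled TBK1-cKD ∆IKKe for Dusp5 (2.13 log2), Dusp16 (1.23), Dusp1 (0.90) and Dusp6 (0.81), where the Dusp6 difference is that of a change of 0.01 against a fall of -0.80. In TBK1-WT ∆IKKe, Dusp16 was the one member whose response difference passed, at 0.64 log2, beside 0.245% of all genes. Uncalled differences there ran from -0.25 for Dusp4 to 0.67 for Dusp2. The interaction of the TBK1 and IKKe labels after R837 passed for Dusp5 (0.73), Dusp1 (0.45), Dusp4 (0.43) and Spry2 (-0.61). It was called for 22.2% of all genes. Dusp4 and Spry2 did not pass in a fit on the R837 groups alone (adjusted p = 0.0735 and 0.125). Dusp4 also did not pass without R837 replicate 3 of TBK1-WT ∆IKKe, nor did Spry2 without any of several single libraries.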

How the results depend on the processing

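Of 107 member values followed through 1523 alternative values, 1417 kept direction and side of the threshold. A further 41 newly passed it, 49 no longer passed and 16 changed sign, and the cause was not tested. Uncalled values close to 0 were not followed, except Spred1 with R837 in TBK1-WT ∆control and Dusp6 with R837 in TBK1-cKD ∆IKKe. The numbers above thus leave out most values near 0. Among the values followed, the sign changes concerned Spred1 and Dusp6, and other members were not checked where their value lay close to 0. Spred1 with R837 in TBK1-WT ∆control ran from -0.09 to 0.17 when 1 library was left out. There it was called as a fall by sum of counts (-0.29) and with a term for the nuclear RNA level (-0.32). With libraries scaled by their sum of counts, Spred1 was -0.03 in TBK1-WT ∆IKKe and -0.01 in TBK1-cKD ∆IKKe. With that term it was -0.16 in TBK1-WT ∆IKKe (called) and -0.14 in TBK1-cKD ∆control (not called), where level and treatment coincided. Its interaction after R837, -0.20, was 0.06 with that term and 0.05 in libraries of low level only. Dusp6 with R837 in TBK1-cKD ∆IKKe was -0.38 by sum of counts, -0.14 with the term, -0.17 in libraries of high level only, -0.01 with no count filter, -0.01 in a fit of its own groups, and -0.04 to 0.10 with 1 library left out. Untreated TBK1-cKD ∆control had 4 members called with the term, 4 in libraries of high level and 4 in its own groups, and 1 to 3 with 1 library left out. The fit of its own groups called 2808 genes in all, against 742 in the main fit. Untreated TBK1-cKD ∆IKKe had 4 by sum of counts, 4 with the term, 5 in libraries of high level and 7 in its own groups. There the fit of its own groups called 5391 genes in all, against 2000 in the main fit. All untreated libraries were of high level, so neither the term nor the high level fit adjusted these comparisons for level. After R837, fits of the compared groups alone called 2 members beside 19 genes in TBK1-WT ∆IKKe and 0 beside 40 in TBK1-cKD ∆control. In the interaction they called 2 beside 982 genes. In TBK1-cKD ∆IKKe they called 6 beside 2610 genes against TBK1-WT ∆control and 4 beside 1864 against TBK1-cKD ∆control. The main fit called 272, 1305, 3253, 4725 and 5067 genes in the same order. Response differences in TBK1-WT ∆IKKe numbered 2 by DESeq2 and 2 with the term, and in TBK1-cKD ∆control 1 with the term and 0 to 1 with 1 library left out. No paired analysis was run because the labels carry no replicate numbers, and a block by the order of the records was not tested. Depth limits Spry1 and Dusp10, which rest on few reads.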
